A study of Mus musculus with 17 samples.

Results

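Oligodendrocytes, the myelin-forming cells of the brain, fell into several of the clusters that the authors deposited with their single-nucleus data. The nuclei described here carried the deposited label Oligodendrocytes and belonged to cluster 2, which ranked second by its number of such nuclei at a clustering resolution of 0.4. They numbered 29228 of 75282 oligodendrocyte-labelled nuclei (38.8%) and of 284074 nuclei in all (10.3%). Cluster 0, called the largest cluster below, held 37325 oligodendrocyte-labelled nuclei, and cluster 15, called the third cluster, held 6603.

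The nuclei came from the posterior brain of 17 female mice, aged 2.3 months. All carried the human TfR knock-in on both alleles (hTfR KI HOM), the controls included. TfR is the transferrin receptor, which carries iron-loaded transferrin into cells and is the route by which some antibody-based carriers cross brain vessel walls. There were 4 saline mice and 4 mice given an unconjugated antisense oligonucleotide directed at Malat1, labelled Malat1 ASO, at 2 mg per kg. A further 6 mice received the oligonucleotide on a TfR antibody, labelled anti-TfR:Malat1, and 3 received it on the oligonucleotide transport vehicle, labelled OTV:Malat1, both at 50 mg per kg of the conjugate. All were dosed intravenously 4 times, at weekly intervals, over 24 days, with tissue collected 72 hours following the final dose. Nothing in the labels ties a mouse to a litter or cage, so p-values measure the spread between these animals. That spread takes in differences between the batches that the authors numbered, since the main fit has no batch term. The series text describes the unconjugated dose as equivalent in oligonucleotide to those of the conjugates.

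A mature oligodendrocyte wraps axons in myelin, which it builds from proteins such as myelin basic protein (Mbp) and the surface glycoprotein Mog. It arises from a precursor marked by Pdgfra and Vcan, through a newly formed stage that expresses Enpp6. Malat1, a long noncoding RNA, is kept in the nucleus, gathers at speckles where splicing factors are stored, and ranks among the most abundant RNAs of many nuclei. An antisense oligonucleotide of the kind that recruits RNase H binds its target RNA and leads to its cleavage. The gene lies on chromosome 19 from 5795690 to 5802672 on the minus strand of GRCm38 (mm10) and is annotated as a lincRNA of 6983 bases.

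The label held against the defining markers. Levels below are CPM, a gene's UMIs (unique molecular identifiers, which tag single captured RNA molecules) per 1000000 UMIs of the same nuclei, given as means over the 17 animals for clusters, and over all pooled nuclei for nuclei of a whole label (those labelled Neurons or Microglia). Mbp stood at 3909 CPM, Mog at 1340 and St18, a transcription factor gene strongly expressed in oligodendrocytes, at 3652. In all nuclei labelled Neurons, pooled, Mbp stood at 134 CPM, Mog at 32.6 and St18 at 110. The precursor genes Pdgfra and Vcan were near 0, at 3.09 and 3.92 CPM, as was Gpr17, a gene of committed precursors, at 3.44 CPM. The early-stage list as a whole summed to 1508 CPM over 15 genes, of which 11 stood at 10 CPM or more. Markers of other cells were low as summed lists: 12.6 CPM over 9 vascular genes, 70.7 over 8 microglial genes and 264 over 8 astrocyte genes.

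The neuron list was higher. Its 10 genes summed to 2668 CPM, ranging from 1626 to 4266 over animals, against 2116 in the largest cluster. Meg3, a neuronal noncoding RNA, stood at 518 CPM, close to the pooled 548 CPM in nuclei labelled Microglia and far from the pooled 7872 CPM in nuclei labelled Neurons. Cluster 2 as deposited held 35048 nuclei, of which 5818 (16.6%) carried the label Neurons and 2 another label. In those 5818 nuclei Mbp stood at 3202 CPM and Meg3 at 1132 CPM, and the 10 neuron genes summed to 6791 CPM as a mean over animals, above the highest sum of any animal's members. They are not counted among the members. The authors called 51 members doublets (0.174%), against 1.39% in the largest cluster, 29.7% in the third and 16.8% of all nuclei. Of 29105 barcode sequences among the members, 123 occurred in more than 1 library, against 10044 of 273792 over all nuclei.

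Members were shallower than the other oligodendrocyte clusters described here. The median member held 945 UMIs and 657 detected genes, against 1457 UMIs and 913 genes in the largest cluster and 2477 UMIs and 1358 genes in the third. Fewer than 1000 UMIs were found in 61.0% of members and in 1.85% of the largest cluster. The nuclei of the same cluster labelled Neurons were shallower still, with medians of 814 UMIs and 583 genes and 78.2% under 1000 UMIs. The median prediction score of the deposited label, whose scale runs from 0 to 1, was 0.815 in members, 0.904 in the largest cluster and 0.969 in the third, and 0.621 in the nuclei of the members' cluster labelled Neurons. Summed over its member nuclei, each animal gave between 946841 and 2224115 UMIs. At the authors' finer resolution of 1, 22674 members fell into cluster 0 of that resolution (median 894 UMIs) and 6553 into cluster 1 (median 1107 UMIs), which also held 19744 nuclei of the largest cluster.

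**Figure D1:**
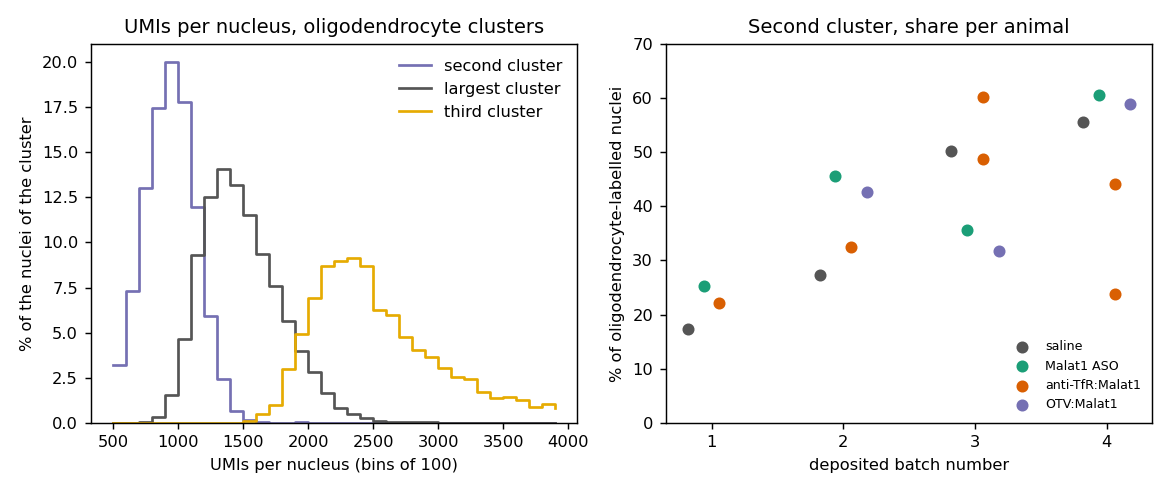
Left, share of nuclei (%) by UMIs per nucleus in bins of 100 for oligodendrocyte-labelled nuclei of the second, of the largest and of the third cluster, whose medians were 945, 1457 and 2477 UMIs. Right, members as a share of each animal's oligodendrocyte-labelled nuclei (%) by deposited batch number, 1 point per animal coloured by group, with the 3 animals of batch 1 between 17.4% and 25.3%.

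The share of an animal's oligodendrocyte-labelled nuclei that fell into the second cluster ranged from 17.4% to 60.6%. Saline animals averaged 37.6% ± 18.2 (SD, n = 4) and OTV:Malat1 animals 44.4% ± 13.7 (SD, n = 3). Between them lay the means of anti-TfR:Malat1, 38.6% ± 15.0 (SD, n = 6), and of Malat1 ASO, 41.8% ± 15.0 (SD, n = 4), and all groups overlapped. By the deposited batch number the share ran from 17.4% to 25.3% in batch 1, from 27.3% to 45.6% in batch 2, from 31.7% to 60.2% in batch 3 and from 23.9% to 60.6% in batch 4. Exact permutation tests of this share over the 4 comparisons gave p from 0.571 to 0.943, each 0.943 after adjustment over them. Cluster borders follow the genes that made the clusters, so nothing is read from these values.

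Compared with the largest cluster, members held less Enpp6, Cldn14, Aff3 and Agmo, and most ribosomal protein and neuron genes were slightly higher. The clusters were made from these genes, so the differences are a description without a test. Among 3794 genes at 50 CPM or more in either cluster, 338 (8.91%) were higher in the members of all 17 animals and 250 (6.59%) were lower in all 17. Most differences were small: 97.2% of the genes lay within 0.5 on the log2 scale, 6 were lower by 1 or more and 0 were higher by 1 or more.

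Enpp6, an ectoenzyme gene known as a marker of newly formed oligodendrocytes, stood at 89.1 CPM in members, 179 in the largest cluster and 261 in the third. Its median within-animal difference was -1.01 on the log2 scale, with a range from -1.27 to -0.63 over the 17 animals. Smaller relative differences were seen for Bcas1, at 810 CPM against 900, Tcf7l2, at 94.8 against 94.5, and Tmem163, at 153 against 148. The early-stage list as a sum stood at 1508 CPM in members, 1686 in the largest cluster and 1963 in the third. Over its 15 genes, 2 were lower in all 17 animals and 0 were higher, beside 6.59% and 8.91% of all genes at 50 CPM or more. The median difference was 0, on a list where only 11 genes stood at 10 CPM or more in members.

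The noncoding RNA A330072L02Rik showed the lowest difference of the genes named, at 23.7 CPM against 64.9 (median -1.40). Cldn14, which encodes a claudin of cell junctions, stood at 36.9 against 82.3 CPM (median -1.18). Aff3, a nuclear factor of transcription elongation complexes, stood at 33.0 against 75.4 CPM (median -1.20), and Sema5a, a semaphorin guidance gene, at 26.0 against 50.8 CPM (median -1.01). Agmo, which encodes an enzyme that cleaves ether lipids, stood at 72.2 against 148 CPM (median -1.004). The other lower genes took in the adhesion genes Cntn3 and Tln2, the tetraspanin gene Tspan9, the amino acid transaminase gene Bcat1 and the phospholipase gene Pla2g4a, along with Cachd1, Fhit, Efr3b and Rapgef5. Their medians lay between -0.91 and -0.73.

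On the higher side, 7630403G23Rik came first, at 134 CPM against 82.7 (median 0.68). Apoe, the lipid carrier made mainly by astrocytes and microglia, stood at 319 against 216 CPM (median 0.57). Cck, a neuropeptide gene, stood at 203 against 135 CPM (median 0.57). Also among the 15 higher genes were the ribosomal genes Rpl13, Rps21 and Rpl15, the mitochondrial genes Atp5d and Chchd2, and C1qtnf4, Tmem59l, Ly6h, Caly, Nenf and Fkbp2. Of 67 ribosomal protein genes at 50 CPM or more, 55 were higher in the members of all 17 animals, beside the 8.91% of all genes at that level. Of the 10 neuron genes, 8 were higher in all 17 animals.

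For each of these 30 genes, 15 each way, the level in the third cluster lay beyond that of the largest cluster in the same direction. Depth moved with this order. When both clusters were limited to nuclei of 1000 to 1300 UMIs, where 10440 members and 9923 nuclei of the largest cluster remained, the median over the 15 higher genes went from 0.57 to 0.17 and that over the 15 lower genes from -0.84 to -0.52. Enpp6 kept most of its gap there, at 84.1 against 159 CPM (median -0.92), while Apoe came to 294 against 262 CPM. The part of depth in the remaining differences was not tested.

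**Figure D2:**
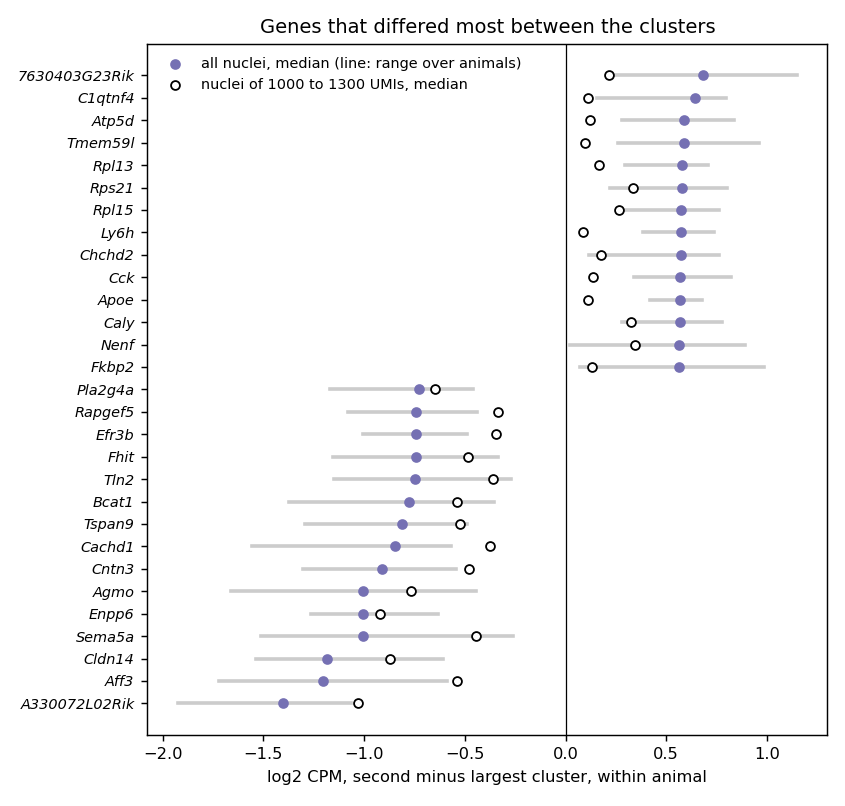
Within-animal difference in log2 CPM between the second and the largest oligodendrocyte cluster for 29 of the 30 genes, as the median (filled point) and range (line) over 17 animals, and as the median among nuclei of 1000 to 1300 UMIs (open point). Open points lie nearer to 0, for example 0.17 against 0.57 as the median over the 15 higher genes, while Enpp6 moves only from -1.01 to -0.92.

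As a sum, myelin genes differed little between the clusters. The 20 genes of the myelin list summed to 17019 CPM in members (15684 to 18461 over animals) and 17810 in the largest cluster. The median difference of the list was 0.03 on the log2 scale. Of the 20 genes, 3 were higher and 4 lower in all 17 animals, beside 8.91% and 6.59% of all genes at 50 CPM or more. Mbp was among the lower ones, at 3909 against 4379 CPM, as was Mobp, which encodes a cytoplasmic myelin protein, at 936 against 1150. Opalin, a membrane protein gene of mature oligodendrocytes, was among the higher ones, at 449 against 392 CPM. A list for a mature oligodendrocyte state named for the protease gene Klk6 went both ways, with sums of 833 CPM in members and 821 in the largest cluster. Its median difference was -0.02 over 12 genes, of which only 5 stood at 10 CPM or more in members. Of the 12 genes, Klk6 alone was lower in the members of all 17 animals, at 9.33 against 19.96 CPM, and the tetraspanin gene Cd9 alone was higher in all 17, at 177 against 137 CPM.

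Nuclear RNAs abundant in mature oligodendrocytes lay lower in members. The 20 genes of that list summed to 69257 CPM against 74774 in the largest cluster, with a median difference of -0.14 on the log2 scale, and 11 were lower and 0 higher in all 17 animals, beside 6.59% and 8.91% of all genes at 50 CPM or more. St18 stood at 3652 against 4208 CPM (median -0.20) and Nkain2, a membrane protein gene, at 11384 against 13079 (median -0.19). Among nuclei of 1000 to 1300 UMIs these medians were -0.11 and -0.06. A list for another mature state, named for Il33 and the prostaglandin synthase gene Ptgds, had 7 of 15 genes lower and 3 higher in all 17 animals (median -0.09). Apod, which encodes a lipid-binding protein, was among the lower ones, at 495 against 604 CPM, and Ptgds among the higher, at 2125 against 1591 CPM. Heat shock and unfolded protein genes had 5 of 16 higher and 0 lower in all 17 animals (median 0.21).

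Malat1 levels separated the OTV:Malat1 animals from every other group. In saline animals it took 13.7%, 11.1%, 11.1% and 8.28% of the members' UMIs in replicates 1 to 4. In Malat1 ASO animals it took 12.4%, 9.57%, 12.04% and 7.26%. In anti-TfR:Malat1 animals it took 6.83%, 6.95%, 8.48%, 7.57%, 6.24% and 6.06% in replicates 1 to 6. The free oligonucleotide group thus spanned nearly the same range as saline, whereas 5 of 6 anti-TfR:Malat1 animals had less than any saline animal. In OTV:Malat1 animals it took 1.57%, 1.26% and 1.34%, all below every animal of the other groups.

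**Figure D3:**
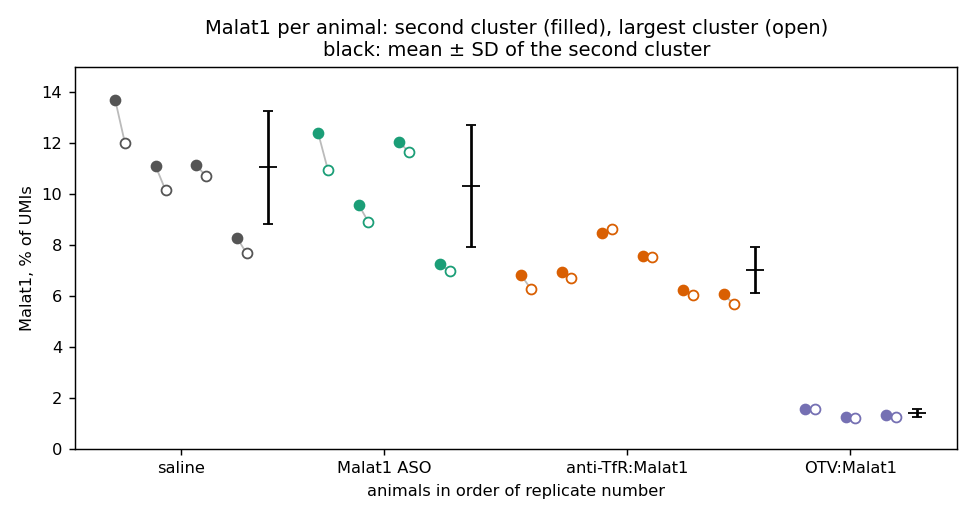
Malat1 as a share of UMIs (%) in each animal, in the second cluster (filled points) and the largest cluster (open points) of oligodendrocyte-labelled nuclei, with the mean ± SD of the second cluster in black. The OTV:Malat1 animals lie between 1.26% and 1.57% in the second cluster, the anti-TfR:Malat1 animals between 6.06% and 8.48%, and the saline animals between 8.28% and 13.7%.

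Saline animals averaged 11.0% ± 2.21 (SD, n = 4). The mean with Malat1 ASO, 10.3% ± 2.39 (SD, n = 4), was 93.4% of the saline mean. With anti-TfR:Malat1 it was 7.02% ± 0.895 (SD, n = 6), or 63.6%, and with OTV:Malat1 1.39% ± 0.161 (SD, n = 3), or 12.6%. All 4 comparisons were read from 1 edgeR quasi-likelihood fit over 11497 genes and 17 animals, with Benjamini-Hochberg adjustment over those genes. The same saline animals enter 3 of these comparisons.

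OTV:Malat1 against saline gave a log2 change of -3.17 (SE 0.20, 95% interval -3.58 to -2.76, adjusted p = 1.1e-09), which is 0.111 times the saline level. Malat1 was the 1 gene called, 0.0087% of those tested, while 252 genes (2.19%) had an unadjusted p under 0.05. It lay among the 8.53% of genes whose groups did not overlap. The shares of genes without overlap, in each comparison, use CPM over all UMIs, Malat1 included. They therefore also carry the rise that less Malat1 gives to the CPM of other genes. The exact permutation test of the single value gave -2.97 on the log2(CPM + 1) scale with p = 0.0571, the smallest that 3 animals against 4 allow (0.0762 adjusted over the 4 comparisons). Within batches 2, 3 and 4, each with 1 animal of either group, the difference was -2.82, -3.14 and -2.63.

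Between the carriers, OTV:Malat1 against anti-TfR:Malat1 gave -2.46 (SE 0.18, 95% interval -2.84 to -2.08, adjusted p = 4.3e-08). Malat1 was again the 1 gene called (0.0087%), with 240 genes (2.09%) under an unadjusted p of 0.05. The exact permutation p was 0.0238, the smallest that 3 animals against 6 allow (0.0476 adjusted over the 4 comparisons), and all 3 OTV:Malat1 animals lay below all 6 anti-TfR:Malat1 animals, as groups did not overlap for 2.61% of genes. The within-batch differences were -2.15, -2.67 and -2.20 in batches 2, 3 and 4.

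For anti-TfR:Malat1 against saline the fitted change was -0.71 (SE 0.14, 95% interval -1.01 to -0.41). It did not pass the threshold over all genes (edgeR, adjusted p = 0.760, unadjusted p = 6.6e-05), and 0 genes were called (0%), with 193 genes (1.68%) under an unadjusted p of 0.05 and 0 called by DESeq2. The 2 groups did not overlap for 0.6% of genes, and Malat1 was not one of them. As a single value, tested by exact permutation, the difference was -0.64 with p = 0.0190 (0.0476 adjusted over the 4 comparisons). Batch moved with the level: the lowest saline animal and the lowest Malat1 ASO animal were those of batch 4, as were both of the lowest anti-TfR:Malat1 animals. Within batches 1 to 4 the difference was -1.004, -0.67, -0.47 and -0.43, and with batch as a term in the edgeR fit it was -0.65 with adjusted p = 0.0413.

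The free oligonucleotide did not pass any test. Malat1 ASO against saline gave -0.09 (SE 0.16, 95% interval -0.43 to 0.24, edgeR adjusted p = 1.00), with 0 genes called (0%), 177 (1.54%) under an unadjusted p of 0.05 and 0 called by DESeq2. Groups did not overlap for 1.44% of genes, without Malat1 among them. The exact permutation p was 0.629, and the within-batch differences were -0.14, -0.21, 0.11 and -0.19. The direction of this small value turned without saline replicate 1 (0.03) or without Malat1 ASO replicate 4 (0.05).

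**Figure D4:**
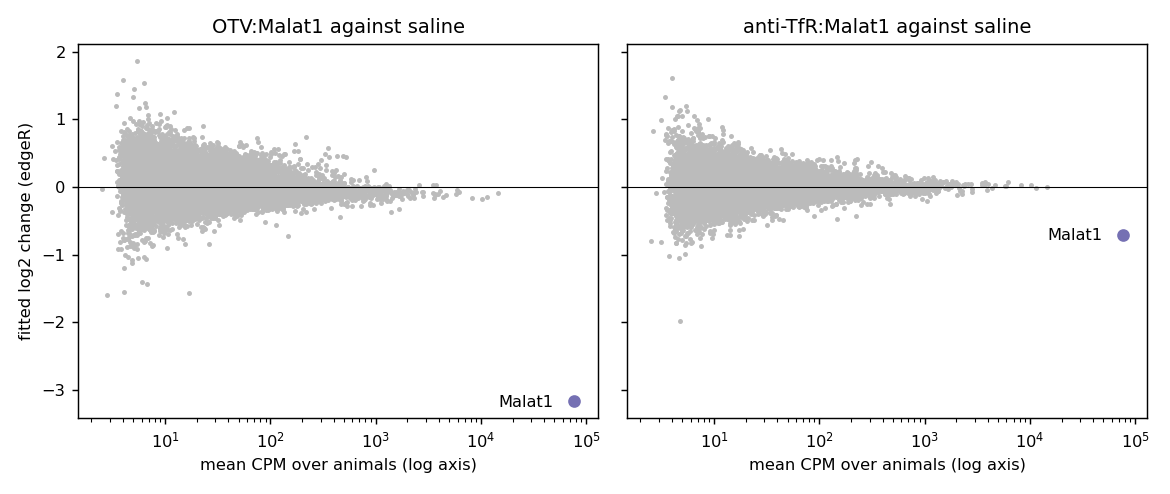
Fitted log2 change (edgeR) of each of 11497 genes in second-cluster oligodendrocytes against its mean CPM over 17 animals (log axis), for OTV:Malat1 against saline (left) and anti-TfR:Malat1 against saline (right). Malat1 lies at -3.17 on the left and -0.71 on the right, and is the 1 gene past the threshold on the left.

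The fall of Malat1 in members was set beside that in the largest cluster, where saline animals averaged 10.1% ± 1.82 (SD, n = 4) and Malat1 ASO animals 9.62% ± 2.12 (SD, n = 4). The carriers gave 6.81% ± 1.09 (SD, n = 6) for anti-TfR:Malat1 and 1.35% ± 0.191 (SD, n = 3) for OTV:Malat1. Members held the higher share in all animals except anti-TfR:Malat1 replicate 3. The interaction of cluster and group, fitted by edgeR over 12288 genes with the animal as a block, was -0.08 on the log2 scale for OTV:Malat1 against saline (SE 0.03, unadjusted p = 0.0144, adjusted p = 0.992). It was -0.07 for anti-TfR:Malat1 against saline (SE 0.03, unadjusted p = 0.0105, adjusted p = 0.991), -0.02 for Malat1 ASO against saline and -0.01 for OTV:Malat1 against anti-TfR:Malat1. As single values the within-animal differences gave -0.07 for OTV:Malat1 against saline (exact permutation p = 0.114, 0.229 adjusted over the 4 comparisons), with 2 of 3 OTV:Malat1 animals below all saline animals, and -0.12, -0.01 and -0.02 within batches 2 to 4. For anti-TfR:Malat1 against saline they gave -0.07 (exact permutation p = 0.0762, 0.229 adjusted) and -0.07, -0.07, -0.06 and -0.04 within batches 1 to 4. Single animals moved the edgeR values. Without saline replicate 1 these were -0.055 for OTV:Malat1 (edgeR, unadjusted p = 0.0934) and -0.047 for anti-TfR:Malat1 (edgeR, unadjusted p = 0.0931), and without OTV:Malat1 replicate 1 the former was -0.057 (edgeR, unadjusted p = 0.129). Without the filter on low counts OTV:Malat1 against saline gave -0.048 (edgeR, unadjusted p = 0.0916). No gene passed the threshold in these 4 interactions (0%), with 579, 565, 557 and 581 genes under an unadjusted p of 0.05.

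Depth again moved with this difference. The window of 1000 to 1300 UMIs counts Malat1 UMIs too, so the level of Malat1 partly decides which nuclei enter. Groups are therefore not matched in it for their other RNA. In OTV:Malat1 1085 members reached 1000 UMIs and 4949 did not, against 2933 and 3554 in saline. In nuclei of 1000 to 1300 UMIs the within-animal difference in Malat1 between members and the largest cluster averaged 0.20 on the log2(CPM + 1) scale for saline as for anti-TfR:Malat1, 0.15 for Malat1 ASO and 0.11 for OTV:Malat1. The anti-TfR:Malat1 interaction was then 0.0037, so its sign turned. For OTV:Malat1 it was -0.09 against saline (edgeR, unadjusted p = 0.00358, adjusted p = 0.885) and -0.09 against anti-TfR:Malat1 (edgeR, unadjusted p = 0.00118, adjusted p = 0.708). As single values, all 3 OTV:Malat1 animals lay below all 4 saline animals (-0.08, exact permutation p = 0.0571, the smallest possible) and below all 6 anti-TfR:Malat1 animals (-0.09, exact permutation p = 0.0238, the smallest possible), with both p at 0.0762 when adjusted over the 4 comparisons. Within batches 2 to 4 the difference from saline was -0.06, -0.05 and -0.12. The free oligonucleotide differed from saline in the same direction in this window, by -0.04 (exact permutation p = 0.0571, 0.0762 adjusted) and by -0.02, -0.05, -0.03 and -0.06 within batches 1 to 4.

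Among the members themselves the group order of Malat1 was the same at each depth. From 500 to under 800 UMIs it was 10.4% ± 2.21 (SD, n = 4) for saline, 6.42% ± 0.771 (SD, n = 6) for anti-TfR:Malat1 and 1.39% ± 0.183 (SD, n = 3) for OTV:Malat1. From 1000 to under 1200 UMIs the same groups gave 11.0% ± 2.10 (SD, n = 4), 7.16% ± 0.880 (SD, n = 6) and 1.41% ± 0.175 (SD, n = 3). In the band between them it was 10.8%, 6.78% and 1.37%, and from 1200 UMIs 12.1%, 7.86% and 1.52% for these groups as means. The 2 finer clusters also gave like values, with fitted changes for OTV:Malat1 against saline of -3.18 in the larger and -3.14 in the smaller. In the nuclei of cluster 2 labelled Neurons, Malat1 took 2.05%, 1.54% and 1.59% of UMIs in OTV:Malat1 and 8.17% to 13.8% in saline.

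Depth per nucleus was lower in every OTV:Malat1 animal than in any saline animal. The median UMIs of an animal's members lay between 936 and 1064 in saline and at 837, 877 and 847 in OTV:Malat1, a difference of -134 (exact permutation p = 0.0571, the smallest possible). Counting UMIs other than Malat1, the medians lay between 834 and 921 in saline and between 823 and 868 in OTV:Malat1, a difference of -37.7 (exact permutation p = 0.171). The largest cluster showed the same order, with medians of all UMIs between 1423 and 1611.5 in saline and between 1249.5 and 1320 in OTV:Malat1.

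Malat1 was then followed nucleus by nucleus. Each nucleus was thinned at random to 500 UMIs, which left none out, and was called low if its Malat1 UMIs numbered under 34, which is the 10th percentile over saline members with the 4 animals weighted equally. Low nuclei made up 0.667%, 4.66%, 3.11% and 30.2% of members in saline replicates 1 to 4. The Malat1 ASO animals had 1.87%, 11.1%, 1.504% and 42.6%. In both groups the animal of batch 4 stood far above the rest. The anti-TfR:Malat1 animals had 49.2%, 48.1%, 29.3%, 40.7%, 57.7% and 60.5%, and the OTV:Malat1 animals had 99.8%, 99.9% and 99.9%. Unthinned, with the same limit, the mean low share was 1.15% for saline, 1.005% for Malat1 ASO, 14.6% for anti-TfR:Malat1 and 98.2% for OTV:Malat1.

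The low share was higher by 90.2 percentage points in OTV:Malat1 than in saline (exact permutation p = 0.0571, the smallest possible, 0.0762 adjusted over the 4 comparisons). It was higher by 37.9 points in anti-TfR:Malat1 than in saline (exact permutation p = 0.0190, 0.0476 adjusted) and the OTV:Malat1 share exceeded the anti-TfR:Malat1 share by 52.3 points (exact permutation p = 0.0238, the smallest possible, 0.0476 adjusted). For Malat1 ASO against saline the difference was 4.60 points (exact permutation p = 0.657). The limit for low nuclei was set from the saline members and kept when animals were permuted, so the p-values against saline are not strictly exact. The low share also follows the Malat1 level, so these tests are not separate from those of the level. The within-batch differences for anti-TfR:Malat1 against saline were 48.5, 43.5, 31.9 and 28.9 points in batches 1 to 4. In the largest cluster the low share averaged 12.9% for saline, 18.4% for Malat1 ASO, 50.9% for anti-TfR:Malat1 and 99.8% for OTV:Malat1.

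**Figure D5:**
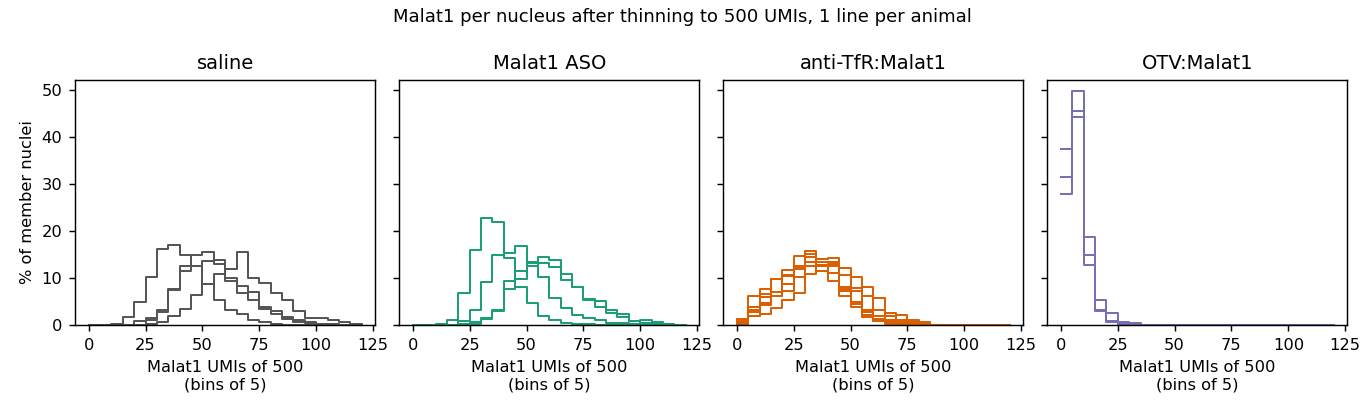
Share of member nuclei (%) by Malat1 UMIs after thinning to 500 UMIs, in bins of 5, with 1 line per animal in each group. The OTV:Malat1 lines peak below 15 UMIs with animal medians of 5 to 7, and the anti-TfR:Malat1 lines extend further toward 0 than the saline and Malat1 ASO lines.

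The spread within each animal was described next. OTV:Malat1 animals had thinned medians of 7, 5 and 6 Malat1 UMIs and 90th percentiles of 14, 11 and 12, and 0.505% to 1.20% of them held 0. For anti-TfR:Malat1 the animal medians ran from 30 to 42 UMIs, their 10th percentiles from 11.2 to 21 and their 90th percentiles from 48 to 62. Saline replicate 4, with a median of 39, had a 10th percentile of 26, and Malat1 ASO replicate 4, with a median of 35, had one of 25. At like medians, the lower tail of the anti-TfR:Malat1 animals thus reached further down. As a mean over animals, the 10th percentile was 0.450 of the median for anti-TfR:Malat1, 0.701 for saline and 0.718 for Malat1 ASO. For OTV:Malat1, at its low counts, it was 0.387. The upper side was wider as well. The 90th percentile was 1.48 to 1.60 times the median in anti-TfR:Malat1 animals, 1.31 to 1.46 in saline and 1.36 to 1.40 in Malat1 ASO. In saline this ratio rose as the median fell, from 1.31 at 67 UMIs to 1.46 at 39. At like medians the gap was smaller: anti-TfR:Malat1 replicates 3 and 4, with medians of 42 and 37, gave 1.48 and 1.54. Malat1 ASO replicate 4 gave 1.40, against 1.49 and 1.53 in anti-TfR:Malat1 replicates 1 and 2, with medians of 34. The part of the count level was not tested.

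A second measure of the lower tail, chosen after these values had been seen, was the share of an animal's members whose Malat1 UMIs numbered under 0.5 times that animal's own median. It was 0.667%, 1.18%, 0.502% and 2.09% in saline and 0.892%, 0.449%, 0.501% and 0.652% in Malat1 ASO. In anti-TfR:Malat1 it was 10.4%, 10.9%, 9.74%, 12.3%, 13.1% and 15.2%, every animal above every saline and Malat1 ASO animal. The difference from saline was 10.8 points, and it was 9.71, 9.71, 10.51 and 12.02 points within batches 1 to 4. Since the same nuclei prompted this measure, these values are a description without a test. In OTV:Malat1 it was 17.2%, 13.7% and 10.3%, at medians of 5 to 7 UMIs where counting error takes a large part of the spread, so it is not read against the other groups. The largest cluster gave 12.1% in anti-TfR:Malat1 and 0.768% in saline as means.

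Apart from Malat1, no gene passed the edgeR threshold in any of the 4 comparisons. For these genes levels are given as CPM over UMIs other than Malat1, since Malat1 alone took 11.0% of the saline UMIs. Mbp stood at 5393, 3873, 3972 and 4111 CPM in saline and at 4228, 3598 and 4540 in OTV:Malat1. The groups overlapped, and the fitted change was -0.10 (95% interval -0.40 to 0.20). Saline replicate 1, of batch 1, which held no OTV:Malat1 animal, stood above the other saline and the OTV:Malat1 animals. Malat1 ASO replicate 1, also of batch 1, stood at 5437 CPM. In batches 2 and 4 the OTV:Malat1 animal lay above the saline animal, and in batch 3 below it. Mog, at 1468, 1406, 1794 and 1283 CPM in saline and 1526, 1551 and 1318 in OTV:Malat1, had a fitted change of -0.05 (95% interval -0.31 to 0.20). St18 stood at 3885, 3963, 3812 and 4279 CPM in saline and 4036, 3253 and 3965 in OTV:Malat1, a fitted change of -0.12 (95% interval -0.35 to 0.11). For St18, OTV:Malat1 replicate 2 lay below all saline animals, and replicates 1 and 3 lay within the saline range. A p that misses the threshold does not show that these levels were alike, but the intervals bound the changes.

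Neat1, the long noncoding RNA that builds paraspeckles and lies beside Malat1 on the chromosome, stood at 1082, 926, 1252 and 837 CPM in saline and 1316, 1250 and 1155 in OTV:Malat1. The fitted change was 0.25 (95% interval -0.07 to 0.56, edgeR adjusted p = 1.00). Against anti-TfR:Malat1, where Neat1 ranged from 638 to 1156 CPM, it was 0.34 (edgeR unadjusted p = 0.0237, adjusted p = 1.00). Tfrc, the mouse transferrin receptor gene, was low, at 13.4 CPM ± 4.73 (SD, n = 4) for saline and 12.5 ± 4.59 (SD, n = 3) for OTV:Malat1, with a fitted change of -0.20 (95% interval -0.82 to 0.42). Counts were made on mm10, and how far they take in transcripts of the human TfR knock-in is not known here.

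Leaving Malat1 aside, none of the 20 gene lists held a called gene in any of the 4 comparisons, where at most 0.0087% of all genes tested were called. Medians over all genes tested were 0.01 for OTV:Malat1 against saline and 0.01 for anti-TfR:Malat1 against saline. The myelin list, with 20 of 20 genes tested, had a median change of -0.05 for OTV:Malat1 and -0.06 for anti-TfR:Malat1, and 0 of its genes had an unadjusted p under 0.05 in either. The 20 nuclear RNAs abundant in mature oligodendrocytes, among them Nkain2, the phosphodiesterase gene Pde4b and the ion exchanger gene Slc24a2, summed to 72989, 74332, 73687 and 80789 CPM in saline and to 76714, 60421 and 76615 in OTV:Malat1. Replicate 2 of OTV:Malat1 stood apart, and ribosomal protein genes took 1.23% of its UMIs against 0.440% to 0.923% in the other 16 animals. The list had a median of -0.10 for OTV:Malat1, with 18 of 20 genes below 0, but without that animal the median was 0.04 with 5 of 20 below 0. Cholesterol synthesis supplies the main lipid of myelin. Of its 20 genes, 17 lay above 0 for OTV:Malat1 (median 0.10) and 9 for anti-TfR:Malat1 (median -0.02). Without OTV:Malat1 replicate 2, which summed to 959 CPM against 798 and 795 in the other OTV:Malat1 animals and 691 to 828 in saline, 13 of 20 lay above 0 (median 0.07). Srebf2, which encodes a transcription factor for these enzymes, stood at 164 CPM ± 12.3 (SD, n = 4) for saline and 169 ± 3.87 (SD, n = 3) for OTV:Malat1. Msmo1, a sterol oxidase gene, stood at 70.2 CPM ± 14.6 (SD, n = 4) for saline, 89.2 ± 11.2 (SD, n = 3) for OTV:Malat1 and 87.6 ± 14.7 (SD, n = 4) for Malat1 ASO, with anti-TfR:Malat1 between at 77.4 ± 11.1 (SD, n = 6). For Malat1 ASO against saline 8 of the 20 genes of the list lay above 0, with a median of -0.04 and a range from -0.74 to 0.99. There 3 of the 20 had an unadjusted edgeR p under 0.05, beside 1.54% of all genes tested, and 0 did in the other comparisons.

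Lists that would follow a response to the oligonucleotide or its carrier gave no called gene, like all genes tested other than Malat1. With at most 0.0087% of genes called in any comparison, this does not set these lists apart. Only 6 of 22 interferon response genes passed the filter on low counts, and their median was -0.05 for OTV:Malat1 and -0.10 for anti-TfR:Malat1. The p53 target list gave 0.04 and 0.03, with 11 of 15 genes tested, among them Mdm2, which restrains p53, at 95.3 CPM ± 10.1 (SD, n = 4) for saline and 94.7 ± 6.21 (SD, n = 3) for OTV:Malat1. The heat shock and unfolded protein list gave 0.05 and -0.02, the former turning to -0.22 without OTV:Malat1 replicate 2, and the endosome and lysosome list 0.06 and -0.03. Iron handling genes, to which Tfrc, the transferrin gene Trf and the ferritin gene Fth1 belong, gave -0.06 and -0.13 with 11 of 16 tested. Paraspeckle and speckle genes gave -0.04 and -0.04 over 19 genes, and the RNA decay list -0.06 and -0.0049. The genes that neighbour Malat1 gave 0.12 and -0.04, with 14 of 18 tested. Red cell and choroid markers, a cell marker list with only 2 of 5 genes tested, lay furthest from 0, at -0.21 and -1.21. For anti-TfR:Malat1 1 of these 2 genes had an unadjusted edgeR p under 0.05, beside 1.68% of all genes tested. The list summed to 44.1 to 174 CPM over anti-TfR:Malat1 animals and 80.3 to 217 over saline animals, so the groups overlapped. Few of these medians held their sign when each animal was left out in turn: 6 of 20 lists did for OTV:Malat1 against saline and 7 of 20 for anti-TfR:Malat1 against saline, myelin, paraspeckle and neighbour genes among them in both.

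Neuronal RNA was followed beside these lists. For anti-TfR:Malat1 against saline all 10 neuron genes lay above 0, with a median of 0.29 and a range from 0.12 to 0.37, beside a median of 0.01 over all genes tested. The median ranged from 0.16 without saline replicate 1 to 0.47 without saline replicate 4. The list summed to 2608 CPM ± 467 (SD, n = 4) for saline and 2675 ± 409 (SD, n = 3) for OTV:Malat1. The sums were 3066 ± 369 (SD, n = 6) for anti-TfR:Malat1 and 3054 ± 1139 (SD, n = 4) for Malat1 ASO. In the largest cluster the median for anti-TfR:Malat1 against saline was 0.26. Malat1 ASO against saline had 9 of 10 neuron genes above 0 (median 0.24) and OTV:Malat1 against saline 4 of 10 (median -0.03). For OTV:Malat1 against anti-TfR:Malat1, the comparison of the carriers, 0 of 10 lay above 0, with a median of -0.27 and a range from -0.52 to -0.04. These comparisons share animals, and 0 of the 10 genes had an unadjusted p under 0.05 in any of the 4. The part of neuronal RNA in the other changes was not tested.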

How the data were processed

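Droplet-based single-nucleus RNA counts from 17 mice were used as deposited. The values are whole UMI counts per gene and nucleus, unnormalized, per the file headers and values, over 26131 genes. The sum of each nucleus equalled the deposited total. Per the submitters' processing notes, Cell Ranger 6.0.1, Seurat 4 and mm10 were used. Cluster numbers, cell type labels, batch numbers, doublet calls and 2 scores given as a fraction (label prediction and doublet) are the authors' deposited metadata. How labels and doublets were called and what the batch number marks is not given in the sources used here. Members and gene lists were chosen with earlier results of these data known.

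UMIs were summed per animal over the members and over the largest cluster. Genes were filtered by filterByExpr, scaled by TMM and fitted with edgeR 4.0.16 (glmQLFit, glmQLFTest, R 4.3.3), two-sided, with an adjusted p threshold of 0.05; the code was tested on simulated data. The interaction fit held 2 sums per animal and a term for the animal. Exact permutation tests over animals (scipy 1.17.1) were two-sided. Nuclei were thinned with a fixed seed. Named were Malat1, Neat1, Tfrc, Mbp, Mog and St18, genes past the threshold, up to 15 genes each way between the clusters with 1 sign in all 17 animals, and up to 4 of highest CPM per list. Other genes were chosen after their values were seen. Alternatives were DESeq2 1.42.0, RLE factors, library sizes without Malat1, unfiltered genes, fits of the compared groups alone, blocks by replicate number or batch, doublets removed, deeper nuclei, other limits for low nuclei, and each animal left out. The finer clusters, nuclei of 1000 to 1300 UMIs, nuclei of any label, exact tests of single values, list medians without each animal and the share under 0.5 times the own median were added after seeing the data. The locus of Malat1 is from GENCODE on GRCm38. Some genes that the rule for names takes in are not reported here.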

Additional observations from a re-analysis of the deposited data

Results flagged for a closer look

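Among 39 sets of 4 to 6 animals examined for a sample far from the rest of its group, 2 were found, and chance gives about 1 such set in 20. Saline replicate 4 had 30.2% of members low in Malat1, against 0.667% to 4.66% in the other saline animals. Saline replicate 1 had Mbp at 5393 CPM over UMIs other than Malat1, against 3873 to 4111 in the other saline animals. High Mbp was shared in its batch: Malat1 ASO replicate 1 stood at 5437 CPM and anti-TfR:Malat1 replicate 1 at 4709, each the highest of its group.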

How the results depend on the processing

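OTV:Malat1 against saline and against anti-TfR:Malat1 kept their direction and call in every edgeR and DESeq2 alternative, with ranges over left-out animals of -3.30 to -3.04 and -2.58 to -2.36 on the log2 scale. By exact permutation the first was -2.97 (p = 0.0571, the smallest possible). Anti-TfR:Malat1 against saline crossed the threshold without the filter on low counts (-0.73, edgeR adjusted p = 7.6e-07, 1 gene called), with batch as a term (-0.65, edgeR adjusted p = 0.0413, 1 gene called) and by exact permutation (-0.64, p = 0.0190), while leaving out animals gave -0.84 to -0.59 with edgeR adjusted p between 0.0984 and 1.00. Without the filter 2 genes were called for OTV:Malat1 against saline, Malat1 and Slc15a2 (-1.57, edgeR adjusted p = 0.0434). Malat1 ASO against saline ranged from -0.21 to 0.045 over left-out animals, with the sign turned without saline replicate 1 (0.03) or Malat1 ASO replicate 4 (0.045). The difference of its change from that in the largest cluster ranged from -0.058 to 0.0012, turning without saline replicate 1. The same difference for OTV:Malat1 against anti-TfR:Malat1 ranged from -0.027 to 0.027 over left-out animals, turning without anti-TfR:Malat1 replicate 1 (0.0068) or 5 (0.0029) or OTV:Malat1 replicate 1 (0.027). Over the other alternatives it ranged from -0.089 in nuclei of 1000 to 1300 UMIs to 0.021 without the filter. That for anti-TfR:Malat1 against saline ranged from -0.105 to -0.047 over left-out animals and was -0.047 in nuclei of 1000 or more UMIs and 0.0037 in nuclei of 1000 to 1300. That for OTV:Malat1 against saline ranged from -0.107 to -0.055 over left-out animals and was -0.048 without the filter. Of 58 such alternative differences 4 called a gene other than Malat1. For anti-TfR:Malat1 against saline, 9330111N05Rik was called in nuclei of 1000 to 1300 UMIs (0.58, edgeR adjusted p = 4.1e-07), in nuclei of 1000 or more (0.40, edgeR adjusted p = 9.9e-04) with Dpyd (0.39, edgeR adjusted p = 0.00754), and without anti-TfR:Malat1 replicate 2 (0.30, edgeR adjusted p = 0.0194). It was also called for OTV:Malat1 against anti-TfR:Malat1 in nuclei of 1000 or more UMIs (-0.45, edgeR adjusted p = 0.0386). For the low share, Malat1 ASO against saline ranged from -4.83 to 11.5 points and turned to -4.83 without Malat1 ASO replicate 4. OTV:Malat1 against anti-TfR:Malat1 ranged from 48.7 to 54.9 points, and with only 2 OTV:Malat1 animals was 52.3 (exact permutation p = 0.0714, the smallest possible). Under 0.5 times the own median these differences were -0.49 and 1.82 points, the latter not read as a comparison because of the low OTV:Malat1 counts. The causes were not tested. Replicate numbers gave no clear pairing: 10 of 21 pairs with a shared number had a correlation of deviations over 0.1, with a range from -0.62 to 0.59 (mean 0.061). Of pairs with different numbers, 29 of 85 did (mean -0.017). Some pairs shared both number and batch, so the 2 are not fully told apart. The deposited batch tied them more closely, with 20 of 27 pairs of 1 batch over 0.1 (mean 0.287) against 19 of 79 pairs of different batches (mean -0.100). Neither the main edgeR fit over groups nor the exact tests carry a batch term. The replicate block gave -3.26, -0.59, -0.10 and -2.66 for OTV:Malat1, anti-TfR:Malat1 and Malat1 ASO against saline and for OTV:Malat1 against anti-TfR:Malat1, and changed no call. Group sizes of 3 to 6 limit the exact tests, and the 5 to 7 Malat1 UMIs of a thinned OTV:Malat1 nucleus limit what its spread can show.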
